A study of Mus musculus with 8 samples.

Results

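Transcripts of the sodium pump's beta subunits and of its FXYD regulators were examined in mouse kidney. The 5 genes were Atp1b1, Atp1b3, Fxyd2, Fxyd4 and Fxyd5, found by their symbols among the 30153 gene identifiers of the deposited table, and each had 1 row. The genes were chosen by name, with earlier results of these data known. The kidneys came from C57/BL6 mice with a human transgene, the angiotensin receptor type 1 gene in its haplotype II form (Hap-II), and every animal was on a western diet. Of the 8 animals, 4 were aged and 4 were adult, with 1 library each, and the series' design text counts them as separate animals. Neither the ages nor the promoter and cell types that drive the human gene are given in the sources used here, and no group lacked the transgene or the diet.

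The sodium pump (Na,K-ATPase) sits in the basolateral membrane of tubule cells and drives sodium reabsorption along the nephron. Its catalytic alpha subunit needs a beta subunit to fold and to reach the membrane. Small single-pass FXYD proteins bind the assembled pump and tune its affinity for sodium and potassium and its turnover. FXYD2, the gamma subunit, is the main FXYD protein of the proximal tubule, the thick ascending limb and the distal convoluted tubule, while FXYD4 (CHIF) belongs to the collecting duct. FXYD5 (dysadherin) has a long extracellular part and is found in several epithelia and in non-epithelial cells.

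The FXYD family takes its name from a short sequence motif just outside the membrane, which the coding sequences of the 3 FXYD members share. The motif's codons are shown in capitals, with 15 bases on either side, from GENCODE release M21 transcripts on GRCm38, to show what these genes have in common whatever their level.
Fxyd2: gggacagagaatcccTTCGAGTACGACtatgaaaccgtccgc
Fxyd4: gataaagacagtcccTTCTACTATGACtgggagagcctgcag
Fxyd5: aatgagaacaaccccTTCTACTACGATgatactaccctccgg
Over the 12 motif bases, Fxyd2 shared 9 with Fxyd4 and 9 with Fxyd5, and Fxyd4 and Fxyd5 shared 10. The motif began at codon 17 of 64 in Fxyd2, at codon 30 of 88 in Fxyd4 and at codon 135 of 178 in Fxyd5, so Fxyd5 has by far the longest stretch ahead of it. Within the principal transcripts used here the coding length was 192 bases for Fxyd2, 264 for Fxyd4 and 534 for Fxyd5, against 912 for Atp1b1 and 834 for Atp1b3.

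The members lie on 4 chromosomes. On GRCm38, Atp1b1 spans 164437109 to 164458355 on the minus strand of chromosome 1. Atp1b3 spans 96332655 to 96364442 on the minus strand and Fxyd2 45399669 to 45410278 on the plus strand of chromosome 9. Fxyd4 spans 117933559 to 117937692 on the minus strand of chromosome 6, and Fxyd5 31032722 to 31042481 on the minus strand of chromosome 7. Only 31 bases separate Fxyd5 from Fxyd7, and Fxyd6 ends 3509 bases before Fxyd2.

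RefSeq promoter windows on GRCm38.p6, from 250 bases before the annotated start to 50 after it, were matched for 4 of the 5 members. Fxyd2 had no matched window. The windows of Atp1b1, the member with the highest mean level, and of Fxyd4, the lowest, are shown to set the ends of the range side by side. Capitals mark the GC box GGGCGG and the CCAAT box on either strand.
Atp1b1, minus strand, chr1:164458306-164458605: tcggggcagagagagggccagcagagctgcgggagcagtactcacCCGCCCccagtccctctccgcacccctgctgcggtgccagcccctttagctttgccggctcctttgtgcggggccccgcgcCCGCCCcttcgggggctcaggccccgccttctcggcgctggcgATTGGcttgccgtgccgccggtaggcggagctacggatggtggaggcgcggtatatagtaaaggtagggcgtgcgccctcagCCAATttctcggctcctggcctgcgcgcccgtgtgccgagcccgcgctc
Fxyd4, minus strand, chr6:117937286-117937585: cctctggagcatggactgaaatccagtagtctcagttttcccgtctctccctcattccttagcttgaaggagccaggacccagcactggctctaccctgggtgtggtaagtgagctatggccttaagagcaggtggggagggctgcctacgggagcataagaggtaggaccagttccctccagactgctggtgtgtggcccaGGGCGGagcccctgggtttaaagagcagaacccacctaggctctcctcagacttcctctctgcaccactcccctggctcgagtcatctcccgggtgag
The Atp1b1 window held 31 CpG pairs and a GC content of 71.0%, and the Fxyd4 window 5 CpG pairs and 58.7%, where the median of 32851 mouse windows was 7 CpG pairs. The GC box occurred 2 times in Atp1b1 and 1 time in Fxyd4, and in 35.7% of all windows. CCAAT occurred 2 times in Atp1b1 and 0 times in Fxyd4, and in 37.4% of all windows. Of the windows not shown, those of Atp1b3 held 34 and 39 CpG pairs, with 6 and 0 GC boxes. That of Fxyd5 held 6 CpG pairs and 0 GC boxes, so these counts did not follow the order of the levels. The TATA sequence TATAAA (13.6% of all windows) and the steroid receptor half-site TGTTCT (19.0%) occurred in the window of none of the 4 matched members on either strand. These matches describe the letters of the windows and were not tested against the levels.

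The deposited values are TPM, which scale each library to a fixed total and correct for transcript length, so levels can be compared between genes. TPM keeps no read depth, and no counting interval was computed. Column totals lay between 924798 and 950974 TPM, and between 10663 and 12293 genes per library reached 1 TPM. Markers of the labelled tissue were present in every library, with summed levels of 7 proximal tubule markers between 1109 and 5168 TPM. Libraries differed in ways that age does not name. The summed Y-linked transcripts Ddx3y, Kdm5d, Eif2s3y and Uty were between 34.7 and 50.6 TPM in replicates 3 and 4 of both age groups, and between 0.485 and 2.30 TPM in replicates 1 and 2. Mitochondrially encoded genes held 26.8% to 46.9% of the scale in aged libraries and 19.6% to 26.1% in adult libraries, and each library's other values shrink as that share grows. Whole kidney was measured, so fewer cells of a type and less RNA per cell cannot be told apart.

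Beta subunit Atp1b1, the form found along the nephron, was among the most abundant kidney transcripts and did not differ detectably with age. It had 444, 1104, 336 and 636 TPM in aged replicates 1 to 4, against 1023, 631, 287 and 508 TPM in adult replicates 1 to 4. The groups overlapped almost entirely, with a high library on each side, namely aged replicate 2 and adult replicate 1. The mean was 630 ± 339 TPM in aged and 612 ± 309 TPM in adult kidneys (SD, n = 4 each). By limma on log2(TPM + 1), fitted over all 11796 genes with a mean of at least 1 TPM, the log2 fold change was 0.04 (SE 0.43, 95% interval −0.89 to 0.97, adjusted p = 1).

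Atp1b3, the beta isoform of many non-renal and immune cells, ran at a small fraction of Atp1b1 in every library. It had 45.8, 52.0, 37.9 and 43.5 TPM in aged kidneys and 59.7, 66.6, 29.1 and 38.7 TPM in adult kidneys. All 4 aged values fell inside the adult range, and the adult libraries spread more widely. The mean was 44.8 ± 5.84 TPM in aged and 48.5 ± 17.6 TPM in adult kidneys (SD, n = 4 each), a log2 fold change of −0.05 (SE 0.29, 95% interval −0.68 to 0.59, limma adjusted p = 1).

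Fxyd2 stood beside Atp1b1 in abundance, and its age groups differed by less than their spread. It had 573, 769, 215 and 296 TPM in aged kidneys, against 912, 984, 248 and 397 TPM in adult kidneys. In both groups replicates 1 and 2 were high and replicates 3 and 4 low, and the age groups overlapped. The mean was 463 ± 255 TPM in aged and 635 ± 368 TPM in adult kidneys (SD, n = 4 each). The log2 fold change of −0.41 (SE 0.50, 95% interval −1.51 to 0.68) had a limma adjusted p of 1, and that interval does not exclude a 2-fold difference in the lower direction. With the split by Y-linked transcripts as a covariate the fold change was the same and its SE 0.21 (adjusted p = 0.637).

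Fxyd5, the dysadherin gene, was lower than Atp1b3 in every library. It had 21.5, 18.3, 12.8 and 20.6 TPM in aged kidneys, against 25.4, 26.1, 10.2 and 19.1 TPM in adult kidneys. The aged values again fell inside the adult range. The mean was 18.3 ± 3.90 TPM in aged and 20.2 ± 7.37 TPM in adult kidneys (SD, n = 4 each), a log2 fold change of −0.08 (SE 0.32, 95% interval −0.79 to 0.63, limma adjusted p = 1). Summed markers of leukocytes, which can also hold Fxyd5, lay between 56.7 and 269 TPM in aged and between 102 and 179 TPM in adult kidneys, and their part in the Fxyd5 level was not tested.

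Fxyd4, the collecting duct member, was close to the lower end of the scale. It was listed at 0.758, 0, 0.396 and 0.529 TPM in aged kidneys and at 1.03, 1.27, 0.124 and 0.128 TPM in adult kidneys. Only adult replicates 1 and 2 reached 1 TPM, and aged replicate 2 was listed at 0. With a mean below 1 TPM the gene was not in the main test, and without the filter its log2 fold change was −0.16 (SE 0.29, limma adjusted p = 1). Principal cell markers of the collecting duct, 6 genes in all, summed to between 92.2 and 227 TPM in aged and between 77.0 and 346 TPM in adult kidneys. A value at or near 0 in this table need not mean that a gene is not expressed, since Slc9a3, a sodium-proton exchanger of the proximal tubule, was also listed at 0 in 7 of the 8 libraries.

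**Figure D1:**
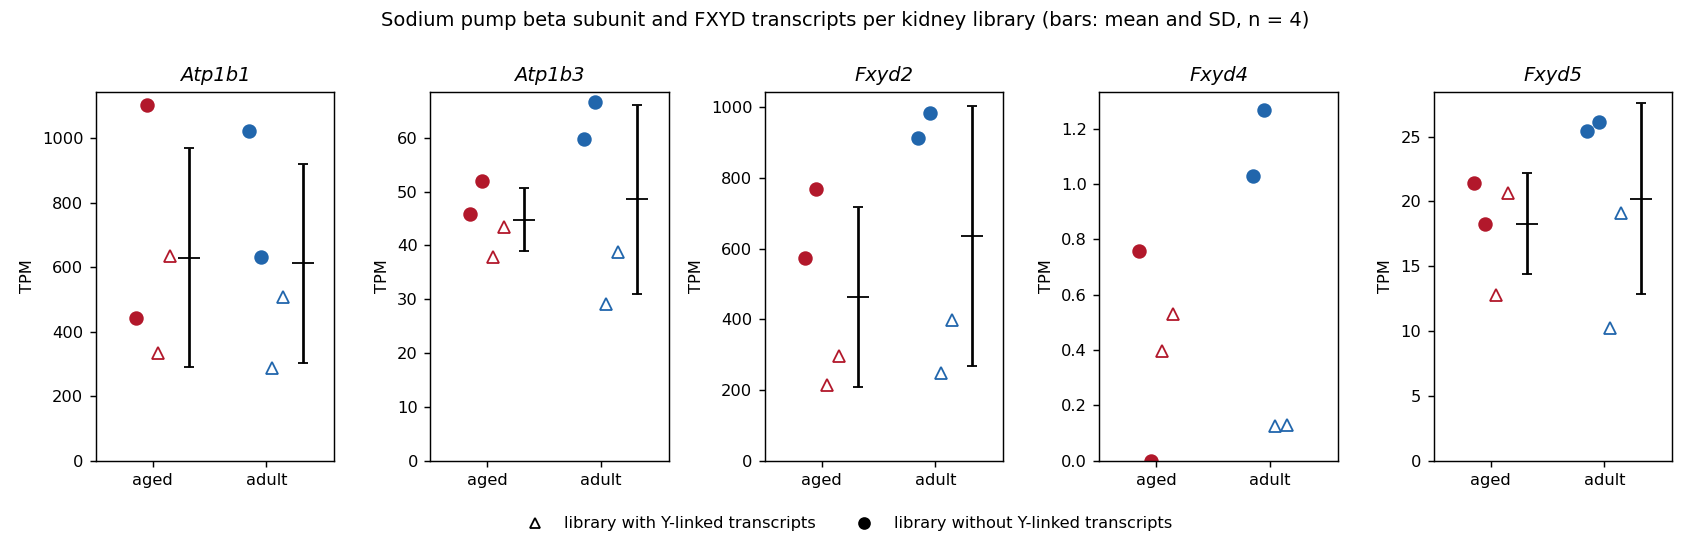
TPM of each member in each kidney library, aged left of adult, on linear axes that start at 0. Open triangles are libraries with Y-linked transcripts, filled circles those without, and black bars give the mean and SD of 4 libraries, left out for Fxyd4 where a library was listed at 0. The age groups overlap for every member, while the triangles of Fxyd2 (215 to 397 TPM) all lie below its circles (573 to 984 TPM). Triangles and circles did not overlap for 22.6% of all genes tested.

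The order of the levels was the same in every library except between Atp1b1 and Fxyd2. Atp1b1 exceeded Atp1b3 in all 8 libraries, and the Atp1b3 to Atp1b1 ratio ran from 0.0471 to 0.113. Fxyd2 and Atp1b1 did not keep an order, since Fxyd2 was the higher in aged replicate 1 and adult replicate 2, at ratios of 1.29 and 1.56, and the lower in the other libraries, down to 0.466. Atp1b3 exceeded Fxyd5, and Fxyd5 exceeded Fxyd4, in every library. By mean TPM over the libraries Atp1b1 ranked 171 and Fxyd2 189 among 30146 genes, Atp1b3 ranked 1610, Fxyd5 3273 and Fxyd4 13062.

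Ratios within a library do not depend on how that library was scaled, and none of the 3 computed to Atp1b1 differed with age beyond the spread. The Fxyd2 to Atp1b1 ratio was 1.29, 0.697, 0.640 and 0.466 in aged kidneys, against 0.891, 1.56, 0.862 and 0.781 in adult kidneys. Aged replicates 2 to 4 lay below all adult libraries and aged replicate 1 above all but one of them. The mean log2 ratio was −0.48 ± 0.61 in aged and −0.02 ± 0.45 in adult kidneys (SD, n = 4 each), a difference of −0.45 (SE 0.38, exact two-sided permutation p = 0.286, adjusted over the 3 ratios 0.800). The difference was −0.09 for Atp1b3 to Atp1b1 (SE 0.35) and −0.12 for Fxyd5 to Atp1b1 (SE 0.37), each with an exact permutation p of 0.800, also after adjustment. The smallest p this design can give is 0.0286.

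**Figure D2:**
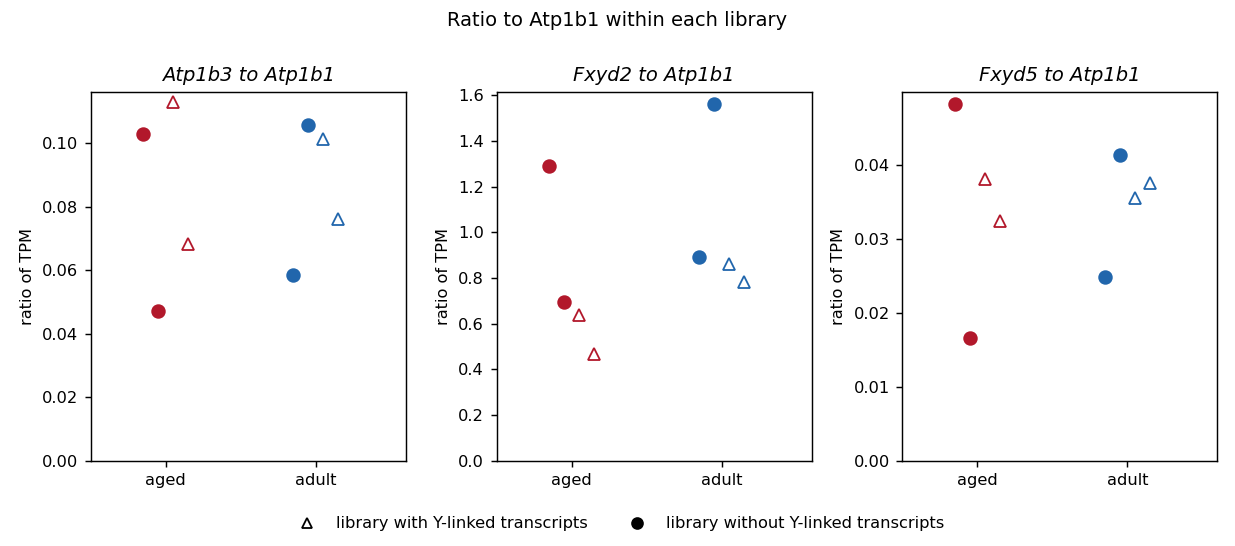
Ratio of TPM to Atp1b1 within each library for Atp1b3, Fxyd2 and Fxyd5, aged left of adult, on linear axes from 0, with open triangles for libraries with and filled circles for those without Y-linked transcripts. The age groups overlap in all panels, and adult replicate 2 stands highest for Fxyd2 at 1.56.

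As a group the members followed the whole table. Of the 5 members 4 passed the filter on low values, and 0 of them were called for age, as were 0 of all 11796 genes (0%), although 400 genes had an unadjusted p under 0.05. The groups did not overlap for 0 members and for 2.46% of all genes tested. A negative log2 fold change was found for 3 of the 4 members and for 65.0% of all genes tested, and the median was −0.06 for the members and −0.11 for all genes. The signs of Atp1b1, Atp1b3 and Fxyd5 are not settled by these data. Atp1b3 and Fxyd5 turned positive with size factors (0.07 and 0.03), with quantile normalization (0.15 and 0.07) and without any one of aged replicate 3, adult replicate 1 or adult replicate 2. Atp1b1 turned negative without any one of aged replicate 2, aged replicate 4, adult replicate 3 or adult replicate 4 (lowest −0.28), while Fxyd2 stayed negative under all 22 settings run, between −0.79 and −0.10. With the mitochondrially encoded genes removed, whose share was higher in every aged than in every adult library, Fxyd2 had −0.11, Atp1b1 0.34, Atp1b3 0.25 and Fxyd5 0.21, and the median over all genes was 0.15.

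**Figure D3:**
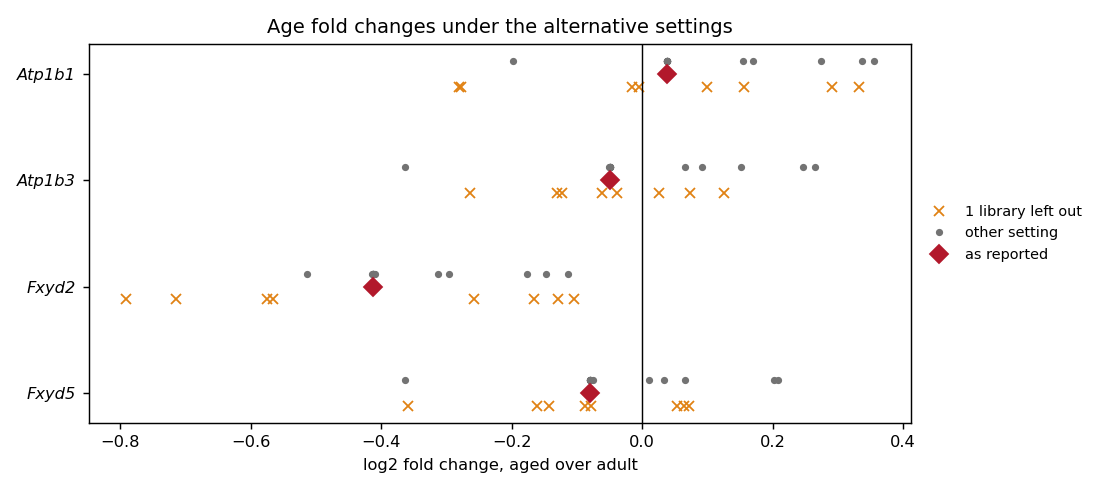
Log2 fold change, aged over adult, of the 4 tested members under each alternative. Red diamonds are the reported values, orange crosses leave out 1 library and grey dots are other settings. Fxyd2 stays below 0 throughout, while the other members fall on both sides of it.

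The split by Y-linked transcripts separated Fxyd2 more clearly than age did. This split was read from the data, the labels do not name it, and it coincides with replicate numbers 3 and 4 against 1 and 2, so anything else these libraries share cannot be told apart from it. Fxyd2 had 215 to 397 TPM in the 4 libraries with Y-linked transcripts, against 573 to 984 TPM in the 4 without. These libraries did not overlap, which held for 22.6% of all genes tested. The mean was 289 ± 79.2 TPM with and 810 ± 181 TPM without them (SD, n = 4 each), a log2 fold change of −1.49 (SE 0.21, limma adjusted p = 0.00318, age in the model). The median over all genes was −0.46, 89.2% of all genes had a negative fold change, 11.3% were called lower and 1.13% higher. With size factors, which bring that median to 0.00, Fxyd2 was still lower by a log2 fold change of −0.93 (SE 0.17, adjusted p = 0.0177), where 2.60% of genes were called lower. It was called in each of the 18 settings run for this split, with adjusted p between 0.0013 and 0.018.

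The other members did not pass for that split. Atp1b1 averaged 442 ± 160 TPM with and 800 ± 315 TPM without Y-linked transcripts (SD, n = 4 each, log2 fold change −0.83, SE 0.35, limma adjusted p = 0.114). Without aged replicate 1 it passed (−1.14, adjusted p = 0.0469), as it did with array weights (adjusted p = 0.0315). Atp1b3 averaged 37.3 ± 5.98 TPM with and 56.0 ± 9.08 TPM without them, and its libraries did not overlap, which held for 22.6% of all genes tested (log2 fold change −0.57, SE 0.20, adjusted p = 0.0786, and 0.033 with array weights). Fxyd5 averaged 15.7 ± 4.98 TPM with and 22.8 ± 3.65 TPM without them (−0.55, SE 0.25, adjusted p = 0.136). With size factors the fold changes of Atp1b1, Atp1b3 and Fxyd5 were −0.28, −0.03 and −0.02. The Fxyd2 to Atp1b1 log2 ratio differed by −0.66 between the same libraries (exact two-sided permutation p = 0.114), so a difference of Fxyd2 from Atp1b1 itself was not shown.

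**Figure D4:**
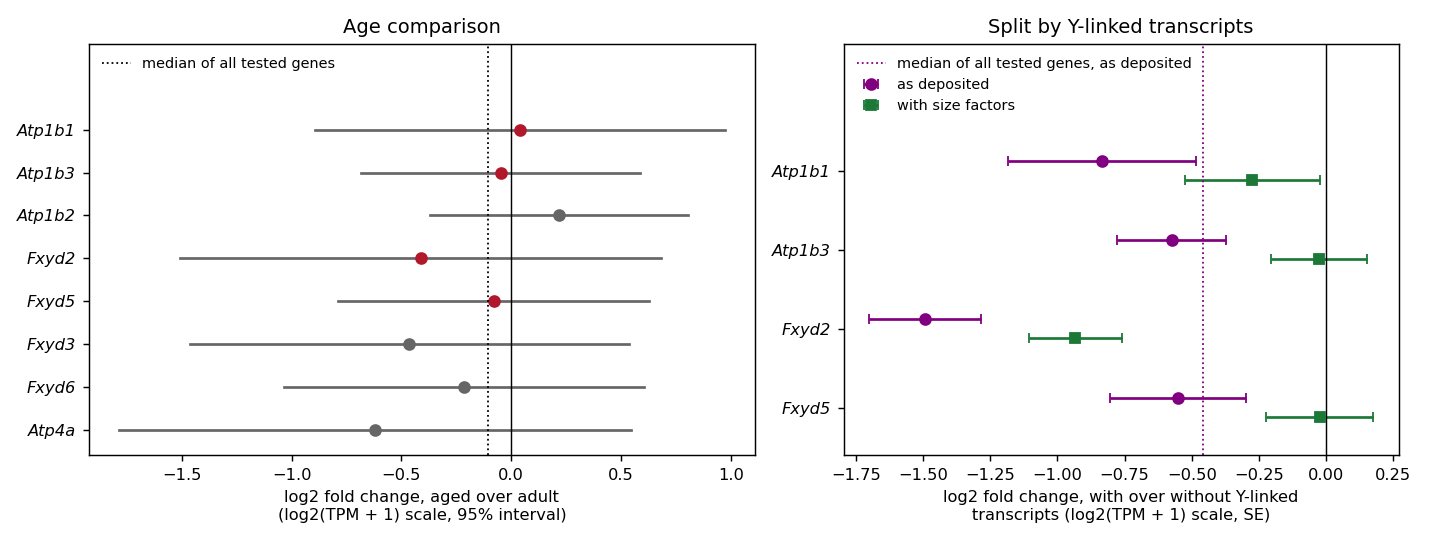
Left, log2 fold change, aged over adult, with 95% interval, for the tested members (red) and other tested genes of the family (grey), where every interval spans 0 and the dotted line is the median of all tested genes (−0.11). Right, log2 fold change of libraries with over those without Y-linked transcripts, with SE, as deposited (purple circles) and with size factors (green squares), where Fxyd2 has −1.49 and −0.93.

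The age difference of the members was not shown to differ between the sets of libraries. In the libraries with Y-linked transcripts, with 2 aged and 2 adult kidneys, the log2 fold change was −0.31 for Fxyd2, 0.27 for Atp1b1, 0.27 for Atp1b3 and 0.20 for Fxyd5. In those without, it was −0.51, −0.20, −0.36 and −0.36 in the same order of genes. The interaction of age with the split had a limma adjusted p of 1 for each of these members, while 0.0339% of all genes passed.

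Thick ascending limb markers were lower with the same split, and some markers of other cell types were too. The 5 thick ascending limb markers summed to 259 to 518 TPM in libraries with and 955 to 2028 TPM in those without Y-linked transcripts, and all 5 were called lower (median log2 fold change −1.60, and −1.04 with size factors, where 4 were called). Over all genes 11.3% were called lower, and 2.60% with size factors. Sums of some other lists did not overlap either. Distal convoluted and connecting tubule markers summed to 67.8 to 158 TPM with and 163 to 464 TPM without Y-linked transcripts. Principal cell markers summed to 77.0 to 165 against 186 to 346 TPM, and intercalated cell markers to 40.6 to 70.2 against 89.2 to 115 TPM. Of 4 tested distal convoluted and connecting tubule markers 2 were called lower (median −1.35), and 0 with size factors (median −0.80). Of 7 proximal tubule markers 1 was called lower (median −0.86), and 0 with size factors (median −0.32). Outside the segments named above as those with FXYD2 as main FXYD protein, 3 of 6 principal cell markers were called lower (median −1.06, and 1 called with size factors). Of 5 red cell markers 2 were called lower (median −1.96, and 0 called with size factors). Among 5 intercalated cell markers 1 was called lower (0 with size factors), as was 1 of 4 inner medulla markers (1 with size factors). Of 6 tested leukocyte markers 1 was called lower (0 with size factors). Podocyte, endothelium, fibroblast, urothelium and adipocyte markers had 0 called. In each of these lists 0 genes were called higher. The part of these segments in the Fxyd2 level was not tested. For Atp1b1, the highest libraries, aged replicate 2 and adult replicate 1, were also those with the highest summed proximal tubule markers, 4092 and 5168 TPM. This was not particular to the proximal tubule. The same libraries were highest for summed markers of the thick ascending limb (1844 and 2028 TPM) and of podocytes (155 and 123 TPM). They also had the largest size factors, 1.31 and 1.48, and the part of any segment in the Atp1b1 level was not tested.

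**Figure D5:**
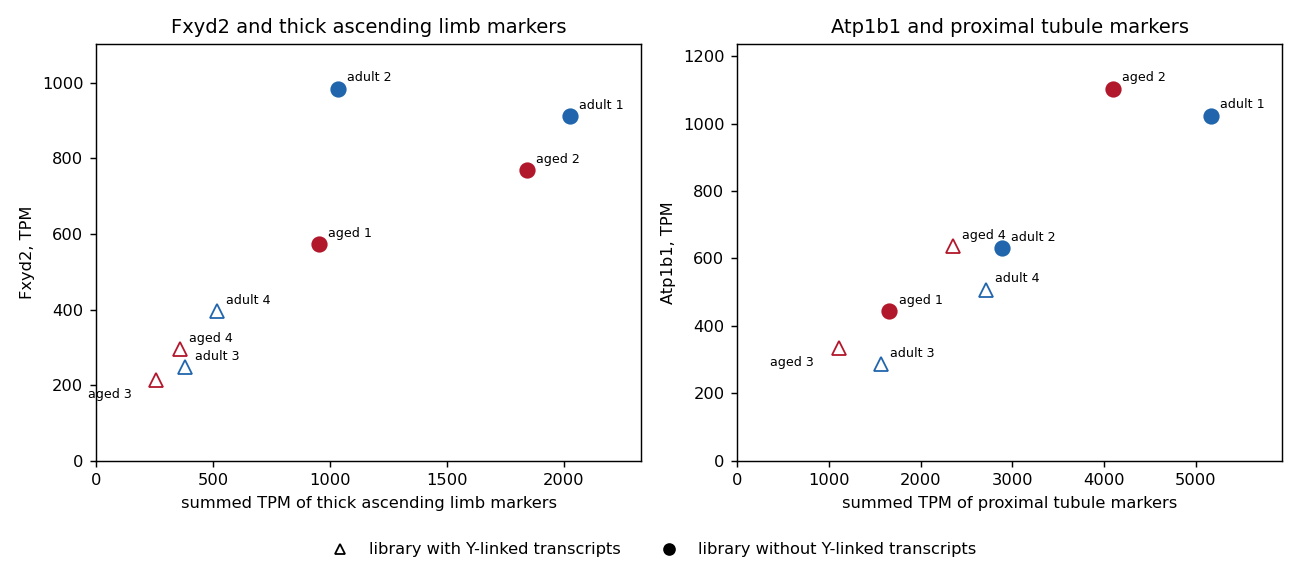
Left, Fxyd2 against the summed TPM of 5 thick ascending limb markers; right, Atp1b1 against that of 7 proximal tubule markers. Each point is 1 library (red aged, blue adult, open triangles with Y-linked transcripts), and the Fxyd2 panel shows the triangles together at low values of both measures.

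Members varied together across the 8 libraries, with Atp1b1 and Fxyd4 the least alike. Values of a library share its scaling, and the part of that scaling in these correlations was not tested. Pearson's r of log2(TPM + 1) was 0.90 between Atp1b3 and Fxyd2, 0.89 between Atp1b3 and Fxyd5 and 0.77 between Atp1b1 and Fxyd2, and 0.18 between Atp1b1 and Fxyd4. Among 5075 genes with a mean of at least 10 TPM (5076 for Fxyd4), the profiles most like that of Atp1b1 were Mthfd1, Kpna6 and Ctnna1 (r = 0.998, 0.997 and 0.995). Those most like Fxyd2 were Krt7, Dstn and Pomgnt1 (0.995, 0.992 and 0.988). For Atp1b3 they were Ephx1, Cd82 and Bsnd (0.989, 0.978 and 0.967), for Fxyd5 Paxx, Ramp2 and Ehd4 (0.976, 0.954 and 0.949), and for Fxyd4 Tmem86a, Dhrs7 and Serping1 (0.908, 0.840 and 0.835). These are the highest of many correlations over few libraries and are descriptions.

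The remaining beta and FXYD genes were rare in these kidneys. Of 6 such genes 3 passed the filter and 0 were called for age, as were 0 of all 11796 genes tested. Of the 3, 1 had a positive and 2 had negative fold changes, where 65.0% of all genes tested had a negative one. Atp1b2, a beta isoform known from brain glia, averaged 1.65 ± 0.44 TPM in aged and 1.29 ± 0.51 TPM in adult kidneys (SD, n = 4 each), with a log2 fold change of 0.22 (SE 0.27). Fxyd3 had 3.28, 0.221, 2.12 and 1.52 TPM in aged and 2.40, 5.37, 2.93 and 0.755 TPM in adult kidneys (−0.46, SE 0.46). Fxyd6, the neighbour of Fxyd2, was listed at 0 in aged replicate 1 and reached at most 2.14 TPM, in adult replicate 1 (−0.22, SE 0.37). Fxyd7 was listed at 0 in every library, and Atp1b4, a beta relative expressed in muscle, at 0 in all but aged replicate 3.

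Fxyd1 (phospholemman), the pump regulator of heart and skeletal muscle, was the family gene whose age groups did not overlap. The groups did not overlap for 2.46% of all genes tested, a share that leaves out genes as low as Fxyd1. Fxyd1 was listed at 0 in aged replicates 1, 3 and 4 and at 0.280 TPM in aged replicate 2. In adult kidneys it had 0.643, 1.86, 0.879 and 1.49 TPM. All of these levels are low, the gene's mean lay under 1 TPM, and it was not in the main test. Without the filter its log2 fold change was −1.03 (SE 0.19, unadjusted p = 0.000632, limma adjusted p = 0.837), so it did not pass.

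Of the proton-potassium pumps, relatives that also pair with beta subunits, only Atp4a passed the filter. It had 2.48, 10.6, 1.05 and 3.77 TPM in aged kidneys and 12.7, 7.48, 3.09 and 3.65 TPM in adult kidneys (log2 fold change −0.62, SE 0.53, limma adjusted p = 1). The gastric beta subunit gene Atp4b was listed at 0 in every library but adult replicate 2, at 0.145 TPM.

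Channels and sodium entry routes that work with the pump had 0 calls for age, as was found over all 11796 genes tested. Over all genes tested 65.0% had a negative fold change, and the median was −0.11. Of 6 basolateral potassium and chloride channel genes, which recycle potassium and let chloride out beside the pump, 5 had negative fold changes, with a median of −0.13. Kcnj16, a basolateral potassium channel subunit, averaged 121 ± 75.8 TPM in aged and 129 ± 75.4 TPM in adult kidneys (SD, n = 4 each). Of 8 apical sodium entry genes 7 were tested and 6 had negative fold changes, with a median of −0.16, and Slc9a3 was listed at 0 in all but adult replicate 4. Slc12a1, the sodium-potassium-chloride cotransporter of the thick ascending limb, averaged 90.1 ± 63.7 TPM in aged and 108 ± 64.4 TPM in adult kidneys (SD, n = 4 each). For the split by Y-linked transcripts 3 of the 6 channel genes and 2 of the 7 entry genes were called lower and 0 higher, where 11.3% of all genes were called lower. The entry genes called, Slc12a1 and Scnn1g, are also among the thick ascending limb and principal cell markers counted above. Their calls are therefore not separate from those counts, and Slc34a1, Slc5a2, Slc12a3 and Scnn1b are shared with the marker lists too. With size factors 0 of the channel genes and 2 of the entry genes were called, where 2.60% of all genes were. Slc12a1 was called under both scalings (log2 fold change −1.60, SE 0.21, limma adjusted p = 0.00236, and 0.0103 with size factors).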

How the data were processed

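The deposited table holds TPM, made by the authors, in 30153 rows and 8 columns, which were matched to samples by name. Of tools and builds, kallisto, DESeq2 and GRCm38 appear in the submitters' processing notes. The sources used here do not give the step that made the TPM, the annotation or any version. Per the labels' protocols, a Qiagen kit gave the RNA, and polyadenylated RNA was pulled down for stranded libraries. Identifiers were matched to symbols for 29732 rows (98.6%), and 7 with the symbol of another row were added to that row.

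Genes averaging at least 1 TPM were tested, aged against adult, on log2(TPM + 1) with limma 3.58.1 (R 4.3.3), whose variance prior followed mean level. P-values were adjusted by Benjamini-Hochberg over all of them, with a threshold of 0.05. Fold changes on this scale understate those of low genes. Ratios were tested by exact permutation over the 70 assignments, and that of Fxyd4, listed at 0 in 1 library, was not computed. The script was tested on simulated data. Alternatives were pseudocounts, filters, scalings, variance models, the replicate block, the split by summed Y-linked transcripts at 10 TPM and each library left out. The comparison between the sides of that split was added after the data were seen. Size factors are medians of ratios computed on TPM.

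The named genes were the members, genes of lists of the pump family, channels, sodium entry and regulators, and the 3 genes most like each member. List genes given with values were picked after values were seen, the others are in the counts, and the catalytic subunits and 1 regulator are not reported here. The members and lists were chosen with earlier results of these data known.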

Additional observations from a re-analysis of the deposited data

Results flagged for a closer look

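Of 24 groups of 4 libraries examined for a library that stood apart by Dixon's test at the 95% critical value (0.829), 2 held one, where chance flags about 1 in 20. The Fxyd2 to Atp1b1 ratio was 1.56 in adult replicate 2, against 0.781 to 0.891 in the other adult libraries. Atp1b2 had 2.05 TPM in adult replicate 1, against 0.997 to 1.09 TPM in the other adult libraries.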

How the results depend on the processing

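The count of genes called for age was 0 as reported, 1 with array weights, 3 where Y-linked transcripts were lacking, 16 where they were present, and 0 to 2 with each library left out. No member was called for age under any alternative. The replicate block gave 0 called genes and a lowest limma adjusted p of 0.649 among the members, that of Fxyd2. Its log2 fold change stayed at −0.41, with an SE of 0.19 with the block and 0.50 without it. The labels do not say that equal numbers mark pairs, so the main fit did not take them as pairs. Deviations of same-numbered libraries correlated at 0.038, 0.181, 0.486 and 0.415, which does not settle whether they are. Of the 4 aged libraries 2 correlated best with the adult library of their own number.

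The members' median log2 fold change, −0.06 as reported, was 0.050 with size factors, 0.11 with quantile normalization, 0.23 with mitochondrial genes removed, 0.051 with array weights and 0.23 in the libraries with Y-linked transcripts, and −0.32 to 0.083 with each library left out. In the order of size factors, quantile normalization, mitochondrial genes removed, array weights and libraries with Y-linked transcripts, Atp1b3 had 0.066, 0.15, 0.25, 0.091 and 0.27, and Fxyd5 0.034, 0.065, 0.21, 0.011 and 0.20. Atp1b1 had −0.20 in the libraries without Y-linked transcripts. Fxyd3 had 0.15 with array weights and 0.10 in the libraries with Y-linked transcripts, where Fxyd6 had 0.26. With each library left out, Atp1b1 lay between −0.28 and 0.33, Atp1b3 between −0.26 and 0.13, Fxyd5 between −0.36 and 0.073 and Fxyd6 between −0.43 and 0.090. The log2 ratio differences lay between −0.26 and 0.16 for Atp1b3 to Atp1b1, −0.73 and −0.23 for Fxyd2 to Atp1b1 and −0.32 and 0.19 for Fxyd5 to Atp1b1. The cause of these shifts was not tested.

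For the split by Y-linked transcripts, 1464 genes were called as reported, 762 without the filter, 642 with size factors, 636 with quantile normalization, 687 with mitochondrial genes removed, 4291 with array weights, and 392 (without aged replicate 2) to 1953 (without aged replicate 4) with each library left out. TPM keeps no depth, so how far low values such as those of Fxyd4 and Fxyd1 rest on few reads is unknown.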

Other observations

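Genes listed as regulators of the pump, of its genes or of sodium transport gave 0 calls for age, as did all 11796 genes tested together. Of 8 such genes, 4 had positive and 4 negative fold changes, where 65.0% of all genes tested had a negative one. Pcbd1, a transcriptional coactivator, averaged 395 ± 59.2 TPM in aged and 494 ± 67.8 TPM in adult kidneys (SD, n = 4 each), with a log2 fold change of −0.32 (SE 0.21, limma adjusted p = 1). Sgk1, an aldosterone-induced kinase that raises sodium transport, had 92.0, 91.4, 31.5 and 31.6 TPM in aged and 30.0, 52.4, 18.0 and 40.3 TPM in adult kidneys, where aged replicates 1 and 2 lay above every adult library (0.70, SE 0.44, limma adjusted p = 1). For the split by Y-linked transcripts 1 of the 8 was called lower, where 11.3% of all genes were. With size factors 0 were, where 2.60% of all genes were. The gene called was the mineralocorticoid receptor gene Nr3c2 (log2 fold change −0.91, SE 0.23, limma adjusted p = 0.0361, and 0.121 with size factors). Pcbd1 did not pass for that split (log2 fold change −0.29, limma adjusted p = 0.183).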
